A study of Mus musculus with 6 samples.

Results

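Transcripts of 41 antioxidant genes were examined in TKO, a mouse ovarian cancer cell line, with and without the protein MNRR1. The genes encode the glutathione and thioredoxin systems, the enzymes that supply them with NADPH, and the regulator pair NRF2 and KEAP1. They were chosen by symbol, and all 41 were found among the 49315 genes of the count table through the GENCODE M21 annotation of GRCm38. Of these, 40 had enough counts to be tested, and Gpx7 did not.

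The series held 3 RNA-seq libraries of MNRR1 KO cells and 3 labelled Wild Type (WT). Both groups are the TKO line, a Triple Knockout whose target genes the labels leave unnamed, so KO cells lack MNRR1 in addition to what both groups lack. The KO descriptions name a single clone, so clone and genotype cannot be told apart. No label states that replicates came from separate cultures, and p-values therefore cover the spread of these libraries alone, which may be technical. The RNA is from bulk cells, in which fewer cells of a type and less RNA per cell cannot be told apart.

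Reduced glutathione and reduced thioredoxin are the electron donors with which cells remove peroxides and repair oxidised proteins, and both are kept reduced by NADPH. NRF2, encoded by Nfe2l2, is a transcription factor that KEAP1 marks for degradation until oxidants or electrophiles modify KEAP1. NRF2 then pairs with small MAF proteins at antioxidant response elements near genes of glutathione synthesis, thioredoxin reduction, NADPH supply and conjugation. MNRR1, the product of Chchd2, acts in mitochondria, a main source of superoxide, and in the nucleus.

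Library totals ran from 33226463 to 40983999 counts. Levels are given as CPM, a gene's share of the library's counts scaled by edgeR's TMM factors. Chchd2 stood at 16.6, 17.6 and 16.9 CPM in the KO replicates and 367, 349 and 340.0 in WT. Log2 CPM correlated across genes at 0.992 or more among KO libraries and at 0.956 to 0.973 between genotypes, and KO replicate 2 was the closest to WT (mean 0.971). Of 11 tested ovarian epithelial markers 2 rose and 5 fell, and the list summed to 3698 to 4048 CPM in KO libraries against 4959.5 to 5114 in WT. All 5 that fell did so by at least 0.5 on the log2 scale, down to -1.88, and the highest log2 change of the 11 was 0.46. Among these markers Wt1 averaged 677 and 719 CPM, whereas the Mullerian marker Pax8 had at most 19 counts in any library. Of 8 leukocyte markers 3 could be tested and all 3 fell, with list sums of 3.34 to 3.84 CPM against 5.54 to 12.4 CPM and Cd3e at 0 counts in every library. Of 6 endothelial markers 3 could be tested, Tek rose and Kdr fell, and sums were 2.72 to 3.79 CPM against 5.76 to 6.25 CPM. For comparison, 27.8% of all tested genes rose and 27.8% fell at an adjusted p under 0.05. The part of such cells in the results below was not tested.

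Of 9 glutathione transferase genes, 7 rose in KO cells and 1 fell. All 3 tested glutathione peroxidase genes fell, as did 3 of 4 genes that make or reduce glutathione and 3 of 6 genes of the thioredoxin system. Of the 40 tested genes, 15 rose and 12 fell at an adjusted p under 0.05 in edgeR's quasi-likelihood test with Benjamini-Hochberg adjustment over all 16033 tested genes. These are 67.5% of the 40 genes, beside 55.7% called among all tested genes. By direction, 37.5% rose and 30% fell, beside 27.8% in each direction among all tested genes. Among genes of at least 10 CPM on average, 68.6% of the antioxidant genes and 66.3% of all genes were called, so the share was near the background. Their median log2 change (KO over WT) was 0.0057, and that of all tested genes was 0.0065. A change of at least 0.5 on the log2 scale was seen for 5 that rose and 3 that fell, 20% of the 40 beside 30.7% of all tested genes.

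The genotypes were fully separated for 28 of the 40 genes, or 70%, beside 64.0% of all tested genes. An exact two-sided permutation test of such a gene gives p = 0.1, the smallest that 3 against 3 libraries allow. For 20 of the 27 called genes the KO value nearest to WT was that of replicate 2, and without that library 15 rose and 15 fell. Scaling by library totals in place of TMM moved the median log2 change of all tested genes from 0.0065 to 0.13, and then 18 antioxidant genes rose and 8 fell. That scaling also raised the log2 change by over 1.5 times for Cat (0.31), Prdx1 (0.30), Prdx2 (0.29), Pgd (0.28), Tkt (0.34) and Keap1 (0.29). It shrank the falls of Gpx4 (to -0.22) and Sod2 (to -0.15) by over 1.5 times. All of these genes were called under both scalings. In total 17 genes kept their call in all 15 alternative settings. The 9 that rose were Gstt1, Gsta4, Gstm1, Mgst1, Gstm5, Gstp1, Sod1, Me1 and Tkt, and the 8 that fell were Gpx8, Gpx1, Gpx4, Txnrd1, Txn2, Gclc, Gsr and Sod2.

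**Figure D1:**
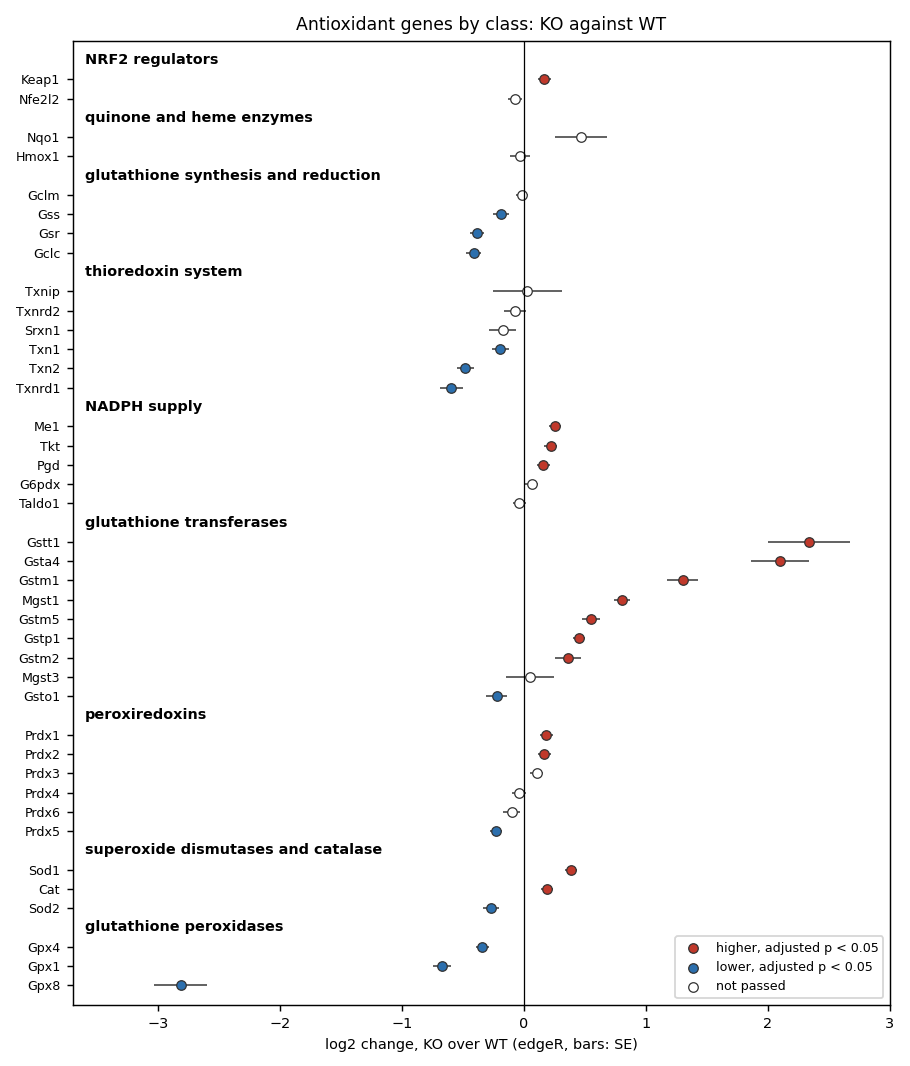
The horizontal axis gives the log2 change of KO over WT with its standard error for the 40 tested genes, grouped by class and coloured by call. Glutathione transferases lie mostly to the right, up to 2.34 for Gstt1, and glutathione peroxidases to the left, down to -2.81 for Gpx8.

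NRF2 and its inhibitor KEAP1 differed little at the transcript level. Nfe2l2 measured 74.5, 80.0 and 78.4 CPM in the KO replicates and 85.3, 82.5 and 77.7 in WT. The genotypes overlapped, and its log2 change was -0.075 (SE 0.057, edgeR adjusted p = 0.289), or 0.046 under scaling by library totals. Keap1, which encodes the adaptor of the ubiquitin ligase that degrades NRF2, measured 56.7, 55.4 and 56.2 CPM in the KO replicates and 51.0, 49.6 and 49.6 in WT. All KO values lay above all WT values, and Keap1 rose by 0.17 on the log2 scale (SE 0.053, edgeR adjusted p = 0.0209). That call was lost under no filter (0.0880) and on leaving out KO 1 (0.0772), WT 1 (0.0545), WT 2 (0.0879) or WT 3 (0.0733), where KO 1 stands for KO replicate 1 and the adjusted p under each setting is in brackets, here and below. The antisense gene Gm16754 shares 510 exonic bases with Keap1, and without a known strand setting its reads (4.36 and 3.37 CPM in KO and WT) cannot be told apart from those of Keap1.

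Hmox1 and Nqo1, both widely used as readouts of NRF2, did not pass the test. Hmox1, which encodes the heme-degrading enzyme heme oxygenase, measured 82.0, 101 and 83.6 CPM in the KO replicates and 91.5, 86.7 and 94.8 in WT. KO replicate 2 was the highest of the 6 libraries and the other KO libraries were the lowest, with a log2 change of -0.032 (SE 0.080, edgeR adjusted p = 0.756). Without KO replicate 2 it passed as lower, at -0.14 (adjusted p = 0.0288, in a range over settings of 0.0288 to 0.967). Nqo1, which encodes a quinone reductase, was far less abundant, with 2.174, 3.09 and 2.14 CPM in the KO replicates and 1.86, 1.47 and 2.01 in WT. Every KO value lay above every WT value, with a log2 change of 0.47 (SE 0.21, edgeR adjusted p = 0.0826). It passed under scaling by library totals (0.0349), in a range over settings of 0.0349 to 0.307, and without KO replicate 2 its log2 change was 0.27.

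**Figure D2:**
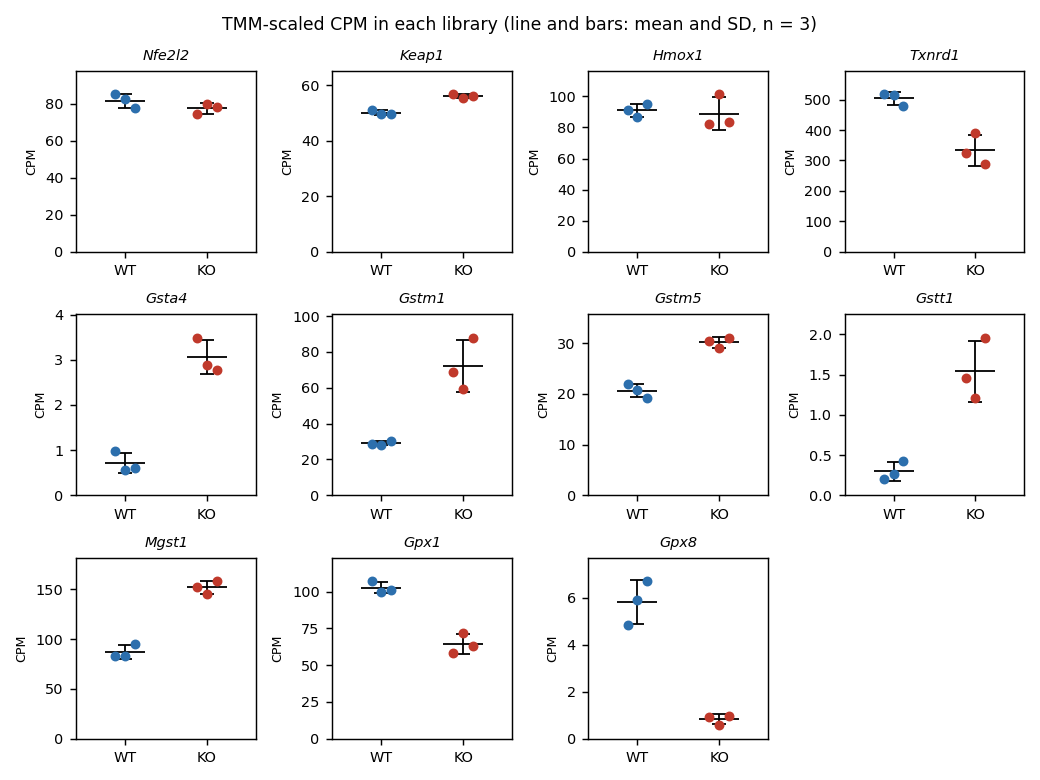
Each panel shows TMM-scaled CPM of a gene, with a point for each of the 3 WT and 3 KO libraries and lines for the mean and SD, on an axis that starts at 0. Nfe2l2 and Hmox1 overlap between genotypes, whereas the other genes shown do not.

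Sequence before the transcription start was read because NRF2 acts through the antioxidant response element. RefSeq starts of GRCm38.p6 matched 36 of the 41 genes, with 45 promoters. There was no entry used here for Gclc, Gsr, Gsta4, Hmox1 and Prdx6. The core TGACNNNGC was searched on both strands of the 250 bases before each start. It was found for 8 of the 36 genes (22.2%), beside 11.5% of 27025 genes with a promoter entry. Of these 8, Gstm5, Mgst1, Prdx1 and Sod1 rose, Txnrd1 fell, and Nfe2l2, Gclm and G6pdx did not pass. The stricter form TGACTCAGC, every match of which also matches TGACNNNGC, was found for Prdx1 among the 36 genes and for 0.426% of all genes. A match describes these letters and is no evidence of binding.

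Matches are printed 5′ to 3′ on the gene's strand for Prdx1, which holds the stricter form, and for Txnrd1, Gstm5, Mgst1 and Nfe2l2, which are in the plot of CPM by library, with the match in capitals. Those of Sod1, Gclm and G6pdx are not printed. For Prdx1 (chr4:116685349-116685543, plus strand) and Txnrd1 (chr10:82859009-82859178, plus strand) the promoter bases outside annotated exons are shown. For Gstm5 (chr3:107895802-107895830, plus strand), Mgst1 (chr6:138140461-138140489, plus strand) and Nfe2l2 (chr2:75704885-75704913, minus strand) a window of 29 bases is shown. In these windows the match overlaps an annotated exon of the gene or of a neighbour. Txnrd1 and Mgst1 have further RefSeq starts without a match before them. The Prdx1, Txnrd1 and Mgst1 matches are on the opposite strand, so the motif's reverse complement is in capitals.
Prdx1: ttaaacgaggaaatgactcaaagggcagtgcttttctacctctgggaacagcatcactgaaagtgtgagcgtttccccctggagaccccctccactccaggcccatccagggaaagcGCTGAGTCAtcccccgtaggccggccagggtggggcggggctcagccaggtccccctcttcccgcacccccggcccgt
Txnrd1: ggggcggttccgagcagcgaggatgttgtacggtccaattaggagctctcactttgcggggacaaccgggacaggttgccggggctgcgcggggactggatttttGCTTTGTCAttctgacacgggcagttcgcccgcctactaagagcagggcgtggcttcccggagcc
Gstm5: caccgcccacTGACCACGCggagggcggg
Mgst1: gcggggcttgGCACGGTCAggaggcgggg
Nfe2l2: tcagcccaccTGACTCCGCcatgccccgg
From match to RefSeq start there were 124 bases for Prdx1, 83 for Txnrd1, 33 for Gstm5, 47 for Mgst1 and 231 for Nfe2l2.

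Of the 4 genes of glutathione synthesis and reduction, 3 fell and 0 rose (75% called, beside 66.3% of genes at 10 CPM or more). Gclc, the catalytic subunit of glutamate-cysteine ligase and the rate-limiting enzyme of the pathway, measured 80.9, 83.8 and 72.3 CPM in the KO replicates and 104, 103 and 109 in WT. The genotypes were separated, and Gclc fell by 0.41 on the log2 scale (SE 0.064, edgeR adjusted p = 2.70e-04). Gclm, the modifier subunit of the ligase, averaged 175 ± 7.99 CPM in KO libraries and 177 ± 3.03 in WT (mean ± SD, n = 3, as for all such values below). Its log2 change of -0.017 (edgeR adjusted p = 0.801) turned to 0.035 under upper-quartile scaling, 0.10 under library totals and 0.018 without KO replicate 3. A stretch of Gclm is 97.9% identical over 287 bases to Ppia, a gene of 989 CPM in WT, so the counts of the pair are uncertain.

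Gss, which encodes glutathione synthetase, the enzyme that completes the tripeptide, fell by 0.19 on the log2 scale, averaging 31.5 ± 1.21 CPM in KO libraries and 35.9 ± 1.23 in WT (edgeR adjusted p = 0.0256). The Gss call was lost under upper-quartile scaling (0.0799) or scaling by library totals (0.356) and on leaving out KO 1 (0.0844), KO 3 (0.0638), WT 1 (0.109) or WT 2 (0.0754). It shares 395 exonic bases with Acss2 on the opposite strand, which rose by 0.50. Gsr, which encodes the glutathione reductase that returns oxidised glutathione to the reduced form with NADPH, measured 119.9, 129 and 117 CPM in the KO replicates and 165, 157 and 155 in WT. Every KO value was below every WT value, and Gsr fell by 0.39 on the log2 scale (SE 0.055, edgeR adjusted p = 1.57e-04).

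All 3 tested glutathione peroxidase genes fell, beside 27.8% of all tested genes. Gpx1, the selenoenzyme of cytosol and mitochondria that reduces hydrogen peroxide, measured 58.5, 72.0 and 63.0 CPM in the KO replicates and 107, 99.7 and 101 in WT. The highest KO value was under the lowest WT value, and Gpx1 fell by 0.67 on the log2 scale (SE 0.075, edgeR adjusted p = 2.96e-05). Gpx4, the selenoenzyme that reduces phospholipid hydroperoxides and guards against ferroptosis, measured 117, 128 and 124 CPM in the KO replicates and 157, 156 and 156 in WT. Its WT libraries were closely grouped and above all KO libraries, and Gpx4 fell by 0.34 (SE 0.051, edgeR adjusted p = 2.10e-04), or by 0.22 under scaling by library totals. The pseudogene Gpx4-ps2, 99.7% identical over 762 bases, averaged 2.28 CPM in KO and 3.201 in WT.

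Gpx8, a membrane protein of the endoplasmic reticulum without selenocysteine, showed the greatest fall of the 40 genes. Its counts were 33, 24 and 37 in the KO replicates and 169, 200 and 266 in WT, or 0.944, 0.589 and 0.953 CPM and 4.83, 5.90 and 6.70 CPM. The genotypes were far apart, and Gpx8 fell by 2.81 on the log2 scale (SE 0.22, edgeR adjusted p = 2.82e-06). Gpx7, a relative in the same compartment, had 2, 0 and 1 counts in the KO replicates and 0, 0 and 2 in WT. All are at or under the 3 counts that a count of 0 allows, so no difference of Gpx7 was detectable at this depth.

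Of the 6 genes of the thioredoxin system, 3 fell and 0 rose (50% called, beside 66.3% of genes at 10 CPM or more). Txnrd1, the cytosolic selenoenzyme that reduces thioredoxin with NADPH, measured 324, 389.6 and 288 CPM in the KO replicates and 518, 516 and 479.9 in WT. All KO values were lower, replicate 2 was the nearest to WT, and Txnrd1 fell by 0.60 on the log2 scale (SE 0.10, edgeR adjusted p = 4.80e-04). Its substrate Txn1 measured 263, 292 and 238 CPM in the KO replicates and 311, 304 and 292 in WT. KO replicate 2 reached the lowest WT library, and Txn1 fell by 0.19 (SE 0.071, edgeR adjusted p = 0.0367). That call was lost under upper-quartile scaling (0.101) or scaling by library totals (0.315) and on leaving out KO 1 (0.110), KO 3 (0.0970), WT 1 (0.126), WT 2 (0.101) or WT 3 (0.0554), and without KO replicate 3 the log2 change was -0.12.

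Mitochondrial thioredoxin, Txn2, measured 99.7, 115 and 94.4 CPM in the KO replicates and 139.8, 149 and 143 in WT. It was separated between genotypes and fell by 0.48 on the log2 scale (SE 0.071, edgeR adjusted p = 1.93e-04). Its reductase Txnrd2 averaged 14.8 ± 1.23 CPM in KO libraries and 15.6 ± 0.550 in WT, a log2 change of -0.071 (edgeR adjusted p = 0.523) that turned to 0.048 under library totals. Srxn1, which encodes the sulfiredoxin that reactivates overoxidised peroxiredoxins, averaged 59.2 ± 10.2 and 66.8 ± 3.57 CPM (log2 change -0.18, edgeR adjusted p = 0.207). It passed as lower without KO replicate 2 (-0.30, adjusted p = 0.0162) and with no filter (0.0282), whereas its log2 change shrank to -0.046 (adjusted p = 0.604) without KO replicate 3 and to -0.057 (0.661) under library totals. Txnip, an inhibitor of thioredoxin, measured 42.8, 41.1 and 81.2 CPM in the KO replicates and 53.2, 53.7 and 55.1 in WT. KO replicate 3 was above all WT libraries and the other KO libraries below them. Over all libraries its log2 change was 0.028 (edgeR adjusted p = 0.942), and without KO replicate 3 it was -0.36 (adjusted p = 2.73e-04).

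Glutathione transferases attach glutathione to electrophiles. Of the 9 genes 7 rose (77.8%) and 1 fell (11.1%), beside 27.8% of all tested genes in each direction. Their median log2 change was 0.55, beside 0.0065 over all tested genes. The greatest relative rises were those of low-abundance transcripts. Gstt1, of the theta class, had 51, 49 and 76 counts in the KO replicates and 7, 9 and 17 in WT. These are 1.46, 1.203 and 1.96 CPM and 0.200, 0.265 and 0.428 CPM. Gstt1 passed the filter on low counts through its KO libraries, and was thus admitted by the genotype in which it was high. The counts, shares and median of the class, and the counts over all 40 genes, include it. Gsta4, an alpha-class enzyme known for clearing the lipid peroxidation product hydroxynonenal, measured 3.49, 2.90 and 2.78 CPM in the KO replicates and 0.972, 0.560 and 0.604 in WT. KO values of both genes lay above all WT values. Gstt1 rose by 2.34 (SE 0.34, edgeR adjusted p = 1.73e-04) and Gsta4 by 2.10 (SE 0.24, adjusted p = 3.57e-05) on the log2 scale.

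Among abundant transferases, Gstm1, of the mu class, measured 68.8, 59.4 and 87.9 CPM in the KO replicates and 28.8, 28.3 and 30.5 in WT. Its KO mean was 2.47 times its WT mean, a log2 rise of 1.30 (SE 0.13, edgeR adjusted p = 3.25e-05). Mgst1, the membrane-bound transferase of endoplasmic reticulum and mitochondria, measured 153, 145 and 158 CPM in the KO replicates and 83.3, 82.7 and 94.8 in WT. Its KO mean was 1.75 times its WT mean, a log2 rise of 0.81 (SE 0.065, edgeR adjusted p = 3.55e-06). Gstp1, of the pi class, measured 144, 145 and 154 CPM in the KO replicates and 107, 111 and 106 in WT. The genotypes were separated, and Gstp1 rose by 0.45 (SE 0.051, edgeR adjusted p = 3.38e-05). Its paralog Gstp2, 98.2% identical over 707 bases, went the other way: it fell by 1.83, to 0.759 ± 0.15005 CPM in KO libraries from 2.71 ± 0.338 in WT. Reads of this pair may be split uncertainly.

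Gsto1, an omega-class enzyme with thiol transferase activity, fell by 0.23, averaging 83.5 ± 11.2 CPM in KO libraries and 97.7 ± 0.757 in WT (edgeR adjusted p = 0.0374). That call was lost under upper-quartile scaling (0.0909) or scaling by library totals (0.239) and on leaving out KO 1 (0.137), KO 3 (0.0949), WT 1 (0.0899), WT 2 (0.0983) or WT 3 (0.0799), and omitting KO replicate 2 gave -0.34 and omitting KO replicate 3 gave -0.15. Mgst3, a microsomal relative, averaged 1.64 ± 0.118 CPM in KO libraries and 1.58 ± 0.197 in WT (log2 change 0.049, edgeR adjusted p = 0.848). Summed over the class, transferases came to 516, 509 and 551 CPM in the KO replicates and 368, 368 and 377 in WT, a ratio of means of 1.42.

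Mu-class genes form a cluster on chromosome 3, between positions 107895821 and 108044894 of GRCm38. In chromosomal order, 4 of the 7 genes rose: Gstm5 by 0.55 (SE 0.074), Gstm2 by 0.36 (SE 0.11), Gstm1 by 1.30 and Gstm4, which is not among the 41 genes, by 0.59 (SE 0.13, edgeR adjusted p = 0.00231). Gstm5 measured 30.4, 29.0 and 31.0 CPM in the KO replicates and 21.95, 20.7 and 19.3 in WT, with no overlap (edgeR adjusted p = 1.05e-04). It shares 178 exonic bases with the antisense gene 4933431E20Rik, which rose by 1.18. Gstm2 measured 33.4, 28.1 and 39.0 CPM in the KO replicates and 26.7, 24.5 and 27.1 in WT, so KO replicate 2 came close to WT (edgeR adjusted p = 0.0152). That call was lost on leaving out WT 2 (0.0683), and without KO replicate 3 the log2 change was 0.23. Gstm7 averaged 0.689 and 0.236 RPKM (TMM-scaled CPM divided by exon length in kilobases) in KO and WT (edgeR adjusted p = 0.0997), and Gstm3 and Gstm6 were too low to test.

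**Figure D3:**
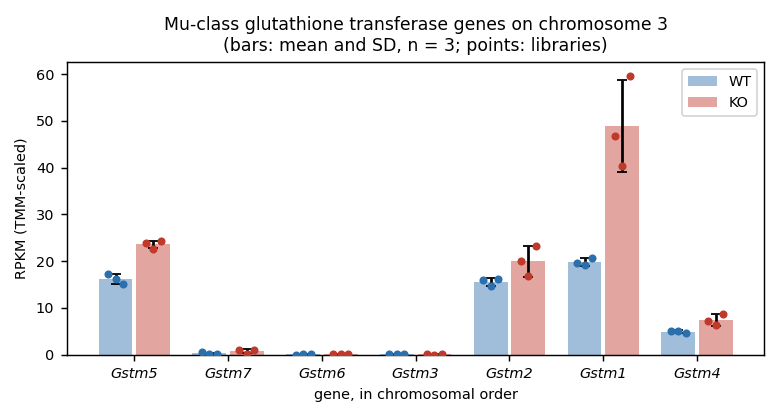
Bars give mean RPKM (TMM-scaled) with the SD over 3 libraries and points the libraries, for KO and WT, of the 7 mu-class genes in chromosomal order. Gstm1 averages 48.9 RPKM in KO and 19.8 in WT, and Gstm7, Gstm6 and Gstm3 are near 0.

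Of the 5 genes of NADPH supply, 3 rose, all by little, and 0 fell. That is 60% called, beside 66.3% of genes at 10 CPM or more. Me1, cytosolic malic enzyme, measured 175, 171 and 176 CPM in the KO replicates and 154, 140.5 and 143 in WT, and rose by 0.25 on the log2 scale (SE 0.052, edgeR adjusted p = 0.00168). Tkt, the transketolase of the pentose phosphate pathway, measured 213, 207 and 223 CPM in the KO replicates and 193, 177 and 183 in WT, and rose by 0.22 (SE 0.054, edgeR adjusted p = 0.00507). Both were higher in every KO library than in any WT library.

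Pgd, the phosphogluconate dehydrogenase of the oxidative branch, rose by 0.16, averaging 254 ± 9.26 CPM in KO libraries and 228 ± 10.1 in WT (edgeR adjusted p = 0.0253). The Pgd call was lost under no filter (0.0512) and on leaving out KO 1 (0.0741), WT 2 (0.0989) or WT 3 (0.125). G6pdx, the entry enzyme of that branch, averaged 75.9 ± 3.43 and 72.7 ± 2.28 CPM (log2 change 0.062, edgeR adjusted p = 0.373), and passed as higher under scaling by library totals (0.18, adjusted p = 0.0180). Taldo1, the transaldolase, averaged 85.9 ± 2.49 and 88.2 ± 4.35 CPM. Its log2 change of -0.038 (edgeR adjusted p = 0.595) turned to 0.014 under upper-quartile scaling and 0.083 under library totals.

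Peroxiredoxins, which reduce peroxides mostly at the expense of thioredoxin, differed little, and 2 of 6 rose and 1 fell. That is 50% called, beside 66.3% of genes at 10 CPM or more. Prdx1, the most abundant of the 41 genes by CPM, measured 678, 730.4 and 661 CPM in the KO replicates and 621, 588 and 613 in WT. KO values were above all WT values, and Prdx1 rose by 0.18 (SE 0.056, edgeR adjusted p = 0.0155), a call lost on leaving out WT 2 (0.0934) or WT 3 (0.0504). Prdx2, another cytosolic form, rose by 0.17, averaging 117 ± 3.88 CPM in KO libraries and 104 ± 5.16 in WT (edgeR adjusted p = 0.0239). The Prdx2 call was lost under no filter (0.0519) and on leaving out KO 1 (0.0625), KO 3 (0.0543), WT 2 (0.118) or WT 3 (0.101). It shares 177 exonic bases with Rnaseh2a on the opposite strand, which rose by 0.24.

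Prdx5, of cytosol, mitochondria and peroxisomes, measured 80.3, 79.1 and 83.5 CPM in the KO replicates and 94.4, 96.7 and 94.2 in WT. All KO values were below WT, and Prdx5 fell by 0.23 (SE 0.051, edgeR adjusted p = 0.00248), a call lost under scaling by library totals (0.0935). Mitochondrial Prdx3 averaged 107 ± 3.06 and 99.7 ± 3.41 CPM (log2 change 0.11, edgeR adjusted p = 0.108), and passed as higher under upper-quartile scaling (0.0225) and library totals (0.23, adjusted p = 0.00219). Prdx4 of the endoplasmic reticulum (log2 change -0.042, edgeR adjusted p = 0.549) and the glutathione-dependent Prdx6 (-0.10, adjusted p = 0.226) did not pass. Under library totals they turned to 0.077 and 0.018. Prdx6 passed as lower without KO replicate 2 (-0.17, adjusted p = 0.00793), and was at -0.061 (0.470) without KO replicate 3 and -0.050 (0.619) without WT replicate 1.

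The superoxide dismutase genes went in opposite directions. Sod1, the copper-zinc enzyme found mainly in the cytosol, measured 220.0, 226 and 211 CPM in the KO replicates and 171, 163 and 168 in WT, and rose by 0.39 on the log2 scale (SE 0.049, edgeR adjusted p = 7.39e-05). Sod2, the manganese enzyme of mitochondria, measured 90.7, 102 and 86.0 CPM in the KO replicates and 114, 111 and 111 in WT, and fell by 0.27 (SE 0.064, edgeR adjusted p = 0.00430), or by 0.15 under scaling by library totals. Neither gene overlapped between genotypes. A stretch of Sod2 is 98.3% identical over 3110 bases to Rps6ka2, which averaged 15.2 CPM in KO and 15.3 in WT. Catalase (Cat), which breaks down hydrogen peroxide in peroxisomes, measured 156, 145 and 154 CPM in the KO replicates and 137, 132 and 130.2 in WT. All its KO values were higher than WT, and it rose by 0.19 (SE 0.052, edgeR adjusted p = 0.00911), a call lost on leaving out KO 1 (0.0523).

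**Figure D4:**
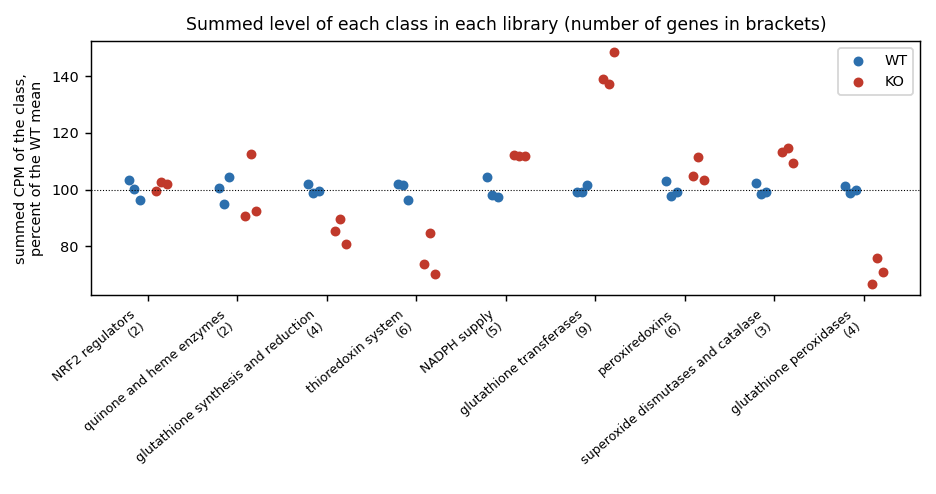
Points give the summed CPM of each class in each KO and WT library, as a percentage of the WT mean on an axis that does not start at 0, with the number of genes in brackets. KO libraries lie above WT for glutathione transferases (ratio of means 1.42), superoxide dismutases and catalase (1.12), NADPH supply (1.12) and peroxiredoxins (1.07). They lie below WT for glutathione peroxidases (0.712), the thioredoxin system (0.764) and glutathione synthesis and reduction (0.853).

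By compartment, of 9 genes whose products work wholly or partly in mitochondria, 6 fell (Gsr, Txn2, Prdx5, Sod2, Gpx1 and Gpx4), 1 rose (Mgst1) and 2 did not pass (Txnrd2 and Prdx3), and their median log2 change was -0.27. The share that fell was 66.7%, beside 27.8% of all tested genes. Of 24 genes assigned to the cytosol alone, 12 rose and 5 fell, and their median was 0.16. That is 50% higher and 20.8% lower, beside 27.8% each way. The 12 include the transferase genes Gsta4, Gstm1, Gstm2, Gstm5, Gstp1 and Gstt1, and the 5 include Gsto1. The cytosol count therefore repeats in part that of the transferase class. Sod1, found mainly in the cytosol, rose and was counted among these 24 genes, and the counts depend on such assignments. The difference between compartments was not tested, and counts per gene do not separate forms of a product that go to different compartments. Of 5 tested genes of the endoplasmic reticulum, Mgst1 rose, Gpx8 fell, and Hmox1, Mgst3 and Prdx4 did not pass. That is 40% called, beside 55.7% of all tested genes.

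Levels per exon length ordered the 41 genes differently in the genotypes. Txn1 was at rank 1 and Prdx1 at rank 2 in both, at 288 and 199.6 RPKM in WT. Gpx1 went from rank 4 in WT to 13 in KO and Txnrd1 from 5 to 11, although their WT levels of 71.3 and 71.2 RPKM overlapped between libraries. Mgst1 went from rank 13 to 4 and Gstm1 from 28 to 10. Summed over the 41 genes, levels were 4594, 4852 and 4547 CPM in the KO replicates and 4814, 4656 and 4634 in WT, which overlapped.

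Other genes of the pathway were read from lists chosen by function. The share of each list called in either direction is given in brackets, to be read beside 55.7% of all tested genes and 66.3% of those of at least 10 CPM. Of 14 partners and regulators of NRF2, 7 rose and 6 fell (92.9% called). Sqstm1, an autophagy receptor that sequesters KEAP1 and is itself an NRF2 target, rose by 0.90 on the log2 scale, to 414 ± 7.40 CPM in KO libraries from 223 ± 10.1 in WT (edgeR adjusted p = 3.85e-07). The small MAF gene Maff fell by 1.03, to 10.1 ± 2.01 CPM from 20.7 ± 2.22. Bach2, which encodes a repressor that also pairs with small MAF proteins, fell by 0.73, and Pgam5, which encodes a mitochondrial phosphatase that binds KEAP1, by 0.84. The genotypes were separated for all 4 genes, which were named by size of change. Their relatives went both ways. Bach1 rose by 0.48, to 126 ± 4.96 CPM from 90.3 ± 3.62. Mafg rose by 0.26, to 108 ± 5.47 CPM from 90.4 ± 2.26, while Mafk fell by 0.68, to 47.2 ± 9.83 CPM from 75.7 ± 2.78. Separation held for 13 of the 14 genes on the list (92.9%), beside 64.0% of all tested genes.

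Of 18 tested NRF2 targets outside the 41 genes, 9 rose and 3 fell (66.7% called, median log2 change 0.40). Slc7a11, which encodes the cystine importer that feeds glutathione synthesis, rose by 2.48, to 32.1 ± 6.13 CPM from 5.75 ± 0.0815. The aldehyde oxidase gene Aox1 rose by 2.07, to 26.0 ± 4.77 CPM from 6.19 ± 0.935. Pir, which encodes the nuclear protein pirin, rose by 1.82, and Osgin1, an oxidative stress-induced gene, by 1.12. The 3 that fell were Ugdh by 0.69, to 134 ± 6.10 CPM from 216 ± 9.01, Esd by 0.36 and Abcc1 by 0.19. Fth1 (653 CPM in KO and 697 in WT) and Ftl1 (576 and 582 CPM) did not pass. Summed over the list, the KO mean was 0.978 times the WT mean.

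Of 21 genes of cystine supply and glutathione turnover, 12 rose and 6 fell (85.7% called, median log2 change 0.38). Cth and Cbs, which encode the transsulfuration enzymes that make cysteine from homocysteine, rose by 1.54 (SE 0.10) and 1.23 (SE 0.17), to 56.5 ± 8.60 and 5.66 ± 1.07 CPM. The gamma-glutamyl transferase gene Ggt5 had 80, 65 and 199 counts in the KO replicates and 4, 6 and 4 in WT. It passed the filter on low counts only through its KO libraries. Ggt6, with 28, 39 and 26 counts against 9, 8 and 20, also passed through KO. Ggt1 went the other way, with 1, 2 and 6 counts in the KO replicates and 35, 32 and 34 in WT, and passed only through WT. The counts, share and median of this list include these genes. Among those that fell, Ggct fell by 0.85, to 21.2 ± 3.99 CPM from 38.3 ± 1.55, and Lap3 by 0.65, to 122 ± 14.1 CPM from 192 ± 5.21.

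Of 17 tested glutaredoxin, thioredoxin-like and methionine sulfoxide reductase genes, 3 rose and 7 fell (58.8% called, median log2 change -0.13). Txndc5, which encodes a protein disulfide isomerase of the endoplasmic reticulum, fell by 0.70, to 144 ± 5.68 CPM from 234 ± 5.76. Tmx1, a membrane-bound thioredoxin-like gene, fell by 0.46 and the methionine sulfoxide reductase gene Msra by 0.45, while Txndc12 rose by 0.43. The Msra call (edgeR adjusted p = 0.0155) was lost under scaling by library totals (0.0511) and on leaving out KO 1 (0.0572) or WT 2 (0.0585).

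Of 15 tested genes of other NADPH sources, 6 rose and 4 fell (66.7% called). Aldh1l2 and Aldh1l1, which encode the mitochondrial and cytosolic formyltetrahydrofolate dehydrogenases, rose by 2.03 (SE 0.054) and 2.01 (SE 0.25), and Aldh1l2 reached 133 ± 3.47 CPM from 32.5 ± 0.639. Idh1, the cytosolic NADP-dependent isocitrate dehydrogenase, rose by 1.39, to 87.9 ± 6.81 CPM from 33.5 ± 1.79. Rpia, of the pentose phosphate pathway, fell by 0.78, to 138 ± 23.4 CPM from 237 ± 12.5.

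Of 20 tested genes for other peroxide, superoxide and transferase proteins, 9 rose and 3 fell (60.0% called, median log2 change 0.39). Gstt3, a theta-class relative of Gstt1, rose by 2.51, to 12.9 ± 3.50 CPM from 2.27 ± 0.417, and the sestrin gene Sesn1 by 1.62, to 131 ± 18.8 CPM from 42.3 ± 5.33. Coq10b, which supports coenzyme Q function, fell by 1.43, to 28.1 ± 6.35 CPM from 75.9 ± 3.70.

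Selenoprotein synthesis was read because Gpx1, Gpx4, Txnrd1 and Txnrd2 encode selenocysteine proteins. Of 11 tested genes, 3 rose and 5 fell (72.7% called, median log2 change -0.13). The 3 that rose were Secisbp2l by 0.30, Eefsec by 0.20 and Scly by 0.17. Secisbp2, which binds the element that recodes UGA to selenocysteine, fell by 0.58, to 19.9 ± 2.14 CPM from 29.7 ± 0.321, and Sepsecs, which encodes the enzyme that forms selenocysteine on its tRNA, by 0.44. The selenium carrier gene Selenop fell by 0.87 and Lrp8, which encodes a receptor of that carrier, by 0.81. The relation of these levels to those of the selenoenzymes was not tested.

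**Figure D5:**
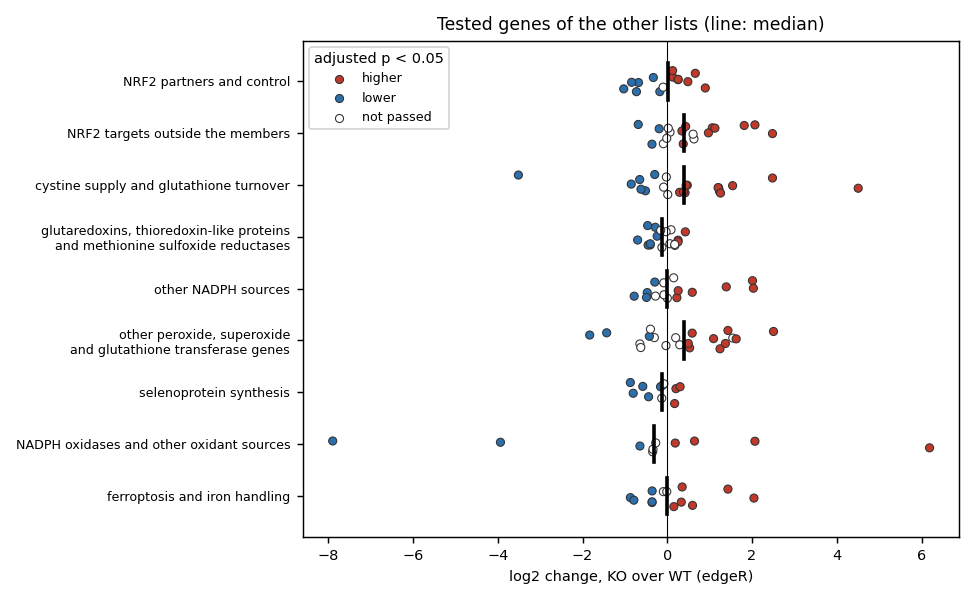
Each point is a tested gene of a list outside the 41 genes, placed by its log2 change of KO over WT and coloured by call, with a bar at the list's median. The lists spread to both sides of 0, and the fitted value of Nox4 at the far left, with 0 counts in KO, depends on the prior count and is not a measured ratio.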

How the data were processed

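What the authors deposited is a table of raw counts by Ensembl gene, with no normalization. STAR 2.5.2b, Subread 1.5.2, DESeq2, Trimmomatic 0.36 and bcl2fastq 2.17 appear among the tools, and GRCm38 as the build, per the submitters' processing notes. Annotation release, strand setting and handling of multiply mapped reads: not given in the sources used here. Libraries were made from total RNA with a NEBNext Ultra II kit, per the labels' protocols.

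Symbols, coordinates and exon lengths came from GENCODE M21. filterByExpr (minimum count 10) left 16033 of 49315 genes. Counts were scaled by TMM and tested with edgeR 4.0.16 in R 4.3.3 (robust quasi-likelihood, genotype as the only term). Adjusted p-values are Benjamini-Hochberg values over all tested genes. The procedure was tested on simulated data. A count of 0 allows up to 3 counts, or 0.0736 to 0.0885 CPM per library, for counting error only. Near-identical transcripts were searched with blastn (95% identity, 200 bases).

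Alternatives were RLE size factors, upper quartiles, library totals, no filter, a filter at 1 CPM, DESeq2 1.42.0, voom in limma 3.58.1, a non-robust fit, the replicate number as a block and omission of each library. Genes were to be given by library where called with a log2 change of at least 0.5 and 1 CPM or more in the higher genotype, besides Nfe2l2, Keap1 and Hmox1. Values by library of other members, and genes that share sequence or a cluster with members, were added after values were seen. From each other list up to 4 called genes of 1 CPM or more were named by size of change. Further genes of some lists were added after values were seen. The 41 genes and the lists were chosen with earlier results of these data known.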

Additional observations from a re-analysis of the deposited data

How the results depend on the processing

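Of the 27 called antioxidant genes, 17 kept direction and call in all 15 alternative settings. Leaving out 1 library gave 19 to 30 called genes, 10 to 15 higher and 9 to 15 lower, with a median log2 change of -0.027 to 0.026. The median was 0.057 under upper-quartile scaling and 0.13 under library totals, and 18 rose and 8 fell under the latter.

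Directions reversed for genes that had missed the threshold. Upper-quartile scaling turned Prdx4 to 0.0090, Gclm to 0.035, Taldo1 to 0.014, Hmox1 to 0.019. Library totals turned Prdx6 to 0.018, Nfe2l2 to 0.046, Prdx4 to 0.077, Gclm to 0.10, Taldo1 to 0.083, Hmox1 to 0.087, Txnrd2 to 0.048. With limma voom Txnip was at -0.045. With 1 library left out, Hmox1 ran from -0.14 to 0.025, Mgst3 from -0.027 to 0.15, Txnip from -0.36 to 0.20, Gclm from -0.049 to 0.018 and Taldo1 from -0.067 to 0.00093. The causes were not tested.

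Same-numbered KO and WT libraries did not deviate together (correlations of -0.0556, 0.0492 and 0.0248), and KO replicate 1 correlated best with WT replicate 3. With the replicate block 27 genes were called, 15 higher and 12 lower, and Txnip was at -0.039. Counting precision limits Gstt1, Gsta4, Nqo1, Mgst3 and Gpx8, and Gpx7 was too low to test.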

Other observations

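Genes of oxidant production and iron handling went in both directions. Of 10 tested NADPH oxidase and other oxidant source genes, 4 rose and 3 fell, 70.0% called beside 55.7% of all tested genes. Duox2, which encodes a hydrogen peroxide-producing oxidase, had 96, 56 and 103 counts in the KO replicates and 0, 0 and 3 in WT. Cyba, which encodes the membrane subunit shared by several NADPH oxidases, had 1, 4 and 4 counts in the KO replicates and 34, 48 and 54 in WT. Duox2 passed the filter on low counts only through its KO libraries, and Cyba and Nox4 only through WT. Each was thus admitted by the genotype in which it was high, and the share called includes these genes. Ero1lb, which encodes an oxidase of the endoplasmic reticulum, fell by 0.65 on the log2 scale, to 7.56 ± 0.170 CPM in KO libraries from 11.8 ± 0.721 in WT (SD, n = 3, edgeR adjusted p = 2.34e-04).

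Of 13 tested genes of ferroptosis and iron handling, 6 rose and 5 fell, 84.6% called. The iron exporter gene Slc40a1 (ferroportin) rose by 2.04, to 72.6 ± 14.8 CPM from 17.6 ± 0.972, while the transferrin receptor gene Tfrc fell by 0.79, to 296 ± 56.6 CPM from 512 ± 20.5. Aifm2, which encodes an oxidoreductase that keeps coenzyme Q reduced, rose by 1.43, and Gch1, the first enzyme of tetrahydrobiopterin synthesis, fell by 0.87.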
